A study of Mus musculus with 4 samples.

Results

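DNA replication machinery is described here in sorted hematopoietic stem and progenitor cells of the mouse fetal liver that lack PICH, a DNA translocase encoded by *Ercc6l*. Its 44 genes were matched by gene name, from a list chosen with earlier results of these data known. All 44 were found among the 39186 genes of the deposited table. They fall into 10 role groups, from the origin recognition complex that marks replication origins to the proteins that protect a running fork. RNA was sequenced from sorted LSK cells (lineage-negative, Sca-1+ and c-Kit+), a gate that enriches for hematopoietic stem cells, in 2 *Pich*-KO and 2 *Pich*-WT samples. All 4 samples were fetal liver cells of the C57BL/6 strain. The knockout allele is a small TALEN-made deletion in the second exon and is carried in the germline, so the sorted cells and the rest of the embryo both lack PICH. The study's methods describe the sorting of LSK cells from E14.5 fetal livers without naming these libraries, while the sex of the embryos and any pooling are not given in the sources used here. The labels do not say that the samples of a group came from separate embryos. The *Pich*-WT libraries differed in their reads on sex-linked genes and so hold different embryos, but for *Pich*-KO the spread between samples may be technical.

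Chromosomes are copied once in each cell cycle. In G1 phase the origin recognition complex, CDC6 and CDT1 load the ring-shaped MCM helicase onto DNA, and in S phase CDC45 and the GINS complex turn it into an active helicase. DNA polymerase alpha with its primase makes the first stretch of each new strand, polymerase epsilon extends the leading strand, and polymerase delta extends the lagging strand while held on DNA by the PCNA clamp. Many of these genes are known targets of E2F transcription factors, which are active as cells enter S phase. Many stem cells of the fetal liver are in cycle, unlike most of those in adult bone marrow.

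As the E2F site is the shared feature by which this machinery is best known, the letters of that site were looked up in the RefSeq promoter windows (GRCm38.p6), which run from 250 bases before to 50 bases after a gene's start. The site was searched as TTTGGCGC, TTTCCCGC, TTTGCCGC or TTTCGCGC on both strands. The 4 stretches that follow are those of members with matching letters upstream of both the RefSeq start and the start in the deposited table, among members whose level rose in *Pich*-KO. They are written 5′ to 3′ on the gene's own strand, with matching letters in capitals. Those of *Mcm5* (chr8:75109332-75109391, plus strand) and *Mcm6* (chr1:128359780-128359839, minus strand) each hold 2 overlapping matches, and those of *Orc3* (chr4:34614948-34615007, minus strand) and *Pola1* (chrX:93632258-93632317, minus strand) hold 1 each.
Mcm5: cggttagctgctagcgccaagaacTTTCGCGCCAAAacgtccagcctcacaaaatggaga
Mcm6: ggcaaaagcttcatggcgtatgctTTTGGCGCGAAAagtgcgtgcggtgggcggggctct
Orc3: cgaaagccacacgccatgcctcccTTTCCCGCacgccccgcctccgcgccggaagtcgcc
Pola1: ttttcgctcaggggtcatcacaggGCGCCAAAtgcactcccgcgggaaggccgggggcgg

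The first match began 153 bases before the RefSeq start in *Mcm5*, 110 in *Mcm6*, 41 in *Orc3* and 138 in *Pola1*. Of the 44 members, 35 had a promoter window, and 16 of these (45.7%) held at least 1 match. Over all genes with a window the share was 704 of 27025 (2.605%), and over those expressed at least as highly as the lowest member it was 343 of 6396 (5.36%). Within the machinery the share in the genes that rose and in those that passed no test was 9 of 20 (45.0%) and 7 of 15 (46.7%). In the 250 bases before the start alone, 9 members (25.7%) held a match, 6 of 20 that rose and 3 of 15 that passed no test. There the share was 2.16% over all genes with a window. Over those expressed at least as highly as the lowest member it was 4.42%. The CCAAT box, searched as CCAAT on both strands, was in the window of 22 of 35 members (62.9%) and of 41.1% of all genes. It was in 14 of 20 members that rose and in 8 of 15 that passed no test. A match in these windows is a description of letters and does not show that a factor binds there. *Mcm4*, *Gins1*, *Gins2*, *Gins4*, *Gmnn*, *Prim2*, *Pole*, *Rfc2* and *Tipin* had no window in the table used.

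The libraries held 14703215 to 20933919 reads on genes. Values are normalized read counts, the reads on a gene divided by 1 size factor per sample, and log2 fold changes are those of *Pich*-KO over *Pich*-WT on the scale of log2(normalized count + 1). Replicates of the same genotype were further apart than counting error allows (chi-square divided by its degrees of freedom 17.7 for *Pich*-KO and 9.54 for *Pich*-WT) and each counted as 1. *Pich*-WT sample 2 had 0 reads on 4 Y-linked genes and 699 on *Xist*, where the other 3 samples had 1607 to 2848 Y-linked reads and 4 to 13 on *Xist*. *Ercc6l* itself (chrX:102141716-102157091) had 1142 and 1232 normalized counts in *Pich*-KO against 772 and 661 in *Pich*-WT (log2 fold change 0.73, adjusted p = 0.00887). As transcripts of the deleted allele are counted too, this does not check the genotype.

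The replication genes were higher in the *Pich*-KO libraries by a modest and widely shared amount. The libraries also differed in markers of macrophages, endothelial cells, erythroid cells and hepatocytes, described below. The part of that difference in the level of the replication genes was not tested. With limma, 24 of 44 members rose and 0 fell at an adjusted p under 0.05, where the adjustment was made over all 32428 genes tested. This is 54.5% of the machinery. Of all genes tested 7.58% rose and 9.6% fell, and of the 8048 genes with a mean at or above that of the lowest member 24.6% rose and 20.7% fell. A total of 41 of 44 members had a log2 fold change above 0. Their median was 0.39, beside 0.025 for all genes tested and 0.081 for the genes expressed at least as highly as the lowest member. In 38 members both *Pich*-KO samples lay above both *Pich*-WT samples, in 1 they lay below, and in 5 the groups overlapped. The share of 86.4% with both *Pich*-KO samples above compares with 45.5% of the similarly expressed genes. The same 24.6% and 45.5% stand beside the counts within the role groups below.

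**Figure D1:**
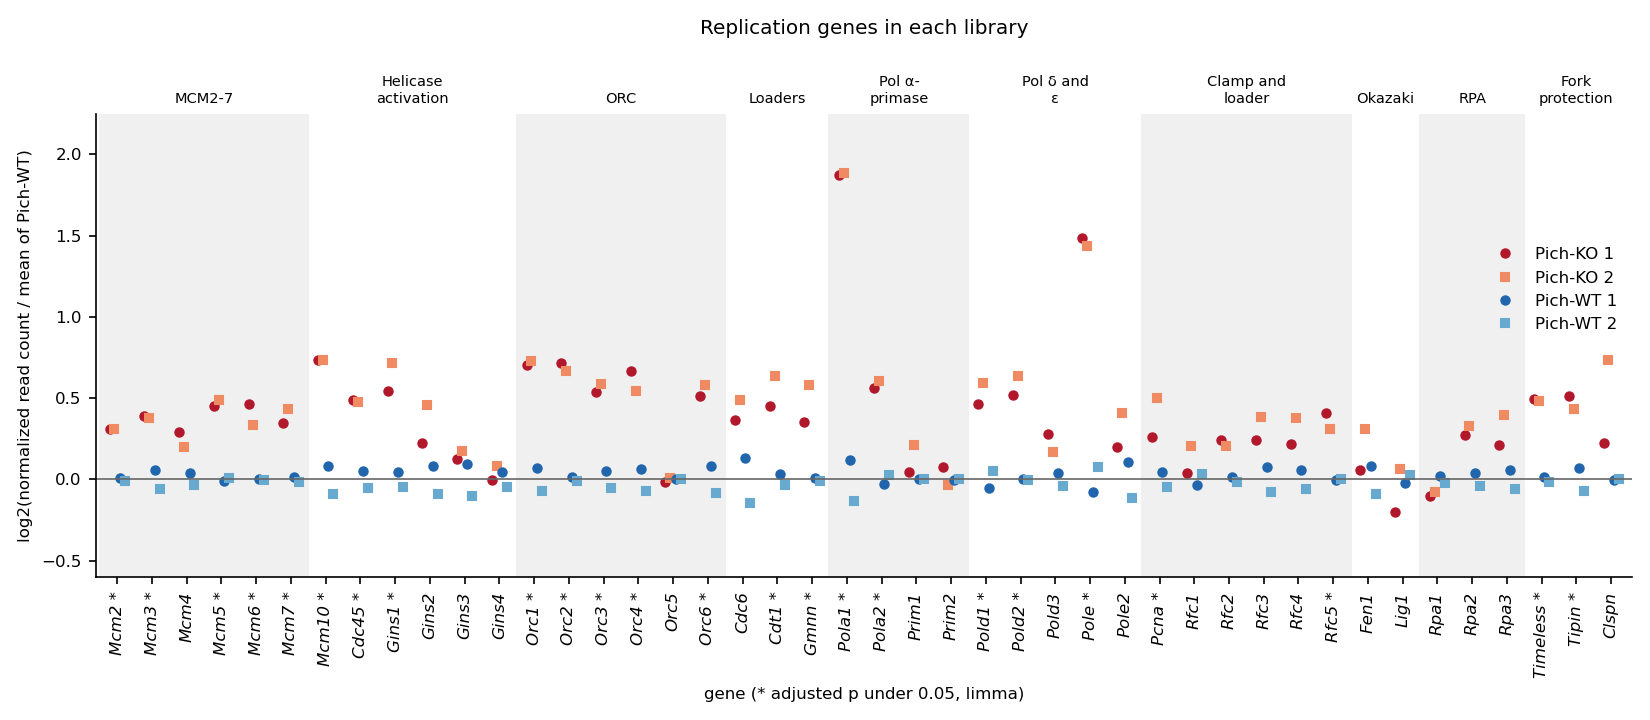
Each point is 1 library, drawn as the log2 ratio of a gene's normalized read count to its *Pich*-WT mean, with genes grouped by role along the horizontal axis and an asterisk on those that passed the limma test. The *Pich*-KO points lie above the *Pich*-WT points in 38 of 44 genes, and *Pola1* and *Pole* lie far above the rest.

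Summed over the 44 genes, the level was 172144 and 175613 normalized counts in *Pich*-KO against 135486 and 131257 in *Pich*-WT. The groups did not overlap, and the mean was 1.30-fold higher in *Pich*-KO. As a share of all normalized counts, the machinery took 1.04% and 1.05% of the *Pich*-KO libraries and 0.828% and 0.843% of the *Pich*-WT libraries. The size of the difference varied: 2 members had a log2 fold change over 1, 11 lay between 0.5 and 1, 18 between 0.3 and 0.5, 10 between 0 and 0.3, and 3 below 0. Across the 44 genes the log2 fold change had a Spearman correlation of 0.11 with gene length and of -0.05 with the mean level, as a description of genes that share the same 4 libraries.

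For a single gene, the exact two-sided permutation test of 2 against 2 samples reaches p = 0.333 at best, so these calls rest on the variance model that limma fits over all genes. When any of the 4 samples was left out, 0 genes of all tested passed the adjusted threshold. In those fits 21 to 30 members were higher at an unadjusted p under 0.05 and 0 were lower, where 8.52% to 12.2% of all genes were higher at that level. With a prior variance that ignored the mean, 0 members passed. In that fit 5 of 44 members were higher at an unadjusted p under 0.05, near the 10.3% of all genes that were. edgeR with TMM scaling on the recovered reads called 27 members higher and 0 lower, where it called 18.6% of genes higher. All 24 of the limma calls were among these members. The shares of genes in this paragraph are not limited to genes expressed at least as highly as the lowest member. With limma on all 4 samples, 24.6% of such genes rose, against 7.58% of all genes tested.

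The origin recognition complex binds the DNA where replication will start, and 5 of its 6 subunits rose. Of genes expressed at least as highly as the lowest member, 24.6% rose and 45.5% had both *Pich*-KO samples above both *Pich*-WT samples. *Orc1*, whose product cycles with the cell cycle, had 630 and 641 normalized counts in *Pich*-KO against 405 and 368 in *Pich*-WT (log2 fold change 0.72, standard error 0.15, adjusted p = 0.0139). *Orc2* had 1765 and 1707 against 1083 and 1064 (0.69, adjusted p = 0.00434). Both pairs are well apart, at 1.65-fold of the *Pich*-WT mean for *Orc1* and 1.62-fold for *Orc2*. *Orc3*, *Orc4* and *Orc6* rose by log2 fold changes of 0.56, 0.61 and 0.55, and none of their groups overlapped. *Orc5*, the remaining subunit, was at 1011 and 1029 in *Pich*-KO against 1022 and 1022 in *Pich*-WT, so the groups overlapped. Its log2 fold change was -0.003, with a 95% interval from -0.28 to 0.28 that leaves out the estimates of the other 5 subunits. Per kilobase of exon, the ratio of *Orc1* to *Orc5* was 1.11 and 1.10 in *Pich*-KO against 0.702 and 0.638 in *Pich*-WT. This is an unequal change within the complex, and the difference in the ratio has an exact permutation p of 0.333, the smallest that this design allows.

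CDC6 and CDT1 bring the helicase to the origin complex, and geminin, the product of *Gmnn*, holds CDT1 back once S phase has begun. *Cdt1* had 3547 and 4016 normalized counts in *Pich*-KO against 2648 and 2530 in *Pich*-WT (log2 fold change 0.54, standard error 0.10, adjusted p = 0.00865). *Gmnn* had 2009 and 2355 against 1586 and 1566 (0.46, adjusted p = 0.0319). The ratio of *Cdt1* to *Gmnn* per kilobase was 0.824 and 0.796 in *Pich*-KO against 0.779 and 0.754 in *Pich*-WT, without overlap and with an exact permutation p of 0.333. That of *Cdc6* to *Gmnn* overlapped between the groups, at 0.357 and 0.332 in *Pich*-KO against 0.385 and 0.322 in *Pich*-WT. *Cdc6* had 2558 and 2791 against 2178 and 1799, with no overlap, and lay just outside the threshold (log2 fold change 0.43, adjusted p = 0.0505). The nearest members inside it were *Gmnn*, *Rfc5* and *Pcna*, whose adjusted p-values were 0.0319, 0.0325 and 0.0374.

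The MCM2-7 genes encode the ring of the replicative helicase, and they had the highest counts of the machinery before correction for length. All 6 had log2 fold changes above 0 in a narrow range of 0.24 to 0.47, and 5 of 6 passed the test. *Mcm5* had 15618 and 16022 normalized counts in *Pich*-KO against 11369 and 11511 in *Pich*-WT (log2 fold change 0.47, standard error 0.07, adjusted p = 0.0022). *Mcm6*, the member with the highest count, had 20132 and 18423 against 14650 and 14547 (0.40, adjusted p = 0.00607). The *Pich*-KO pair was above the *Pich*-WT pair for each of the 6 genes. Of genes expressed at least as highly as the lowest member, 45.5% were so placed and 24.6% rose. *Mcm3*, *Mcm7* and *Mcm2* rose by 0.39, 0.39 and 0.31 on the log2 scale. *Mcm4* had 8873 and 8322 against 7442 and 7070 and did not pass (log2 fold change 0.24, adjusted p = 0.0771). Per kilobase, *Mcm6*, *Mcm5*, *Mcm3* and *Mcm7* held ranks 1 to 4 of the 44 genes in *Pich*-WT, at 3129, 2865, 2846 and 2123 normalized counts per kilobase. *Pcna* followed at 2123, too close to *Mcm7* to be told apart, and *Mcm4* and *Mcm2* held ranks 6 and 8 with *Tipin* between them. The order of the 44 levels per kilobase was nearly the same in both genotypes, with a Spearman correlation of 0.98 over genes.

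Of the factors that switch the loaded helicase on, *Mcm10*, *Cdc45* and *Gins1* rose. *Mcm10*, needed to start unwinding, had 3089 and 3084 normalized counts in *Pich*-KO against 1964 and 1742 in *Pich*-WT (log2 fold change 0.74, standard error 0.11, adjusted p = 0.00245). It was the third largest change of the 44. *Cdc45* had 2307 and 2281 against 1705 and 1581 (0.48, adjusted p = 0.0169). The GINS complex has 4 subunits, and only *Gins1* of them passed, with 810 and 913 normalized counts against 574 and 538 (0.63, adjusted p = 0.0194). *Gins2* and *Gins3* also had higher values in both *Pich*-KO samples, with log2 fold changes of 0.34 and 0.15 (adjusted p = 0.138 and 0.583). *Gins4* was at 1210 and 1287 against 1254 and 1174, where the groups overlapped, and its log2 fold change was 0.04 with a 95% interval from -0.24 to 0.32.

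*Pola1* and *Pole*, which encode the catalytic subunits of polymerase alpha and polymerase epsilon, changed most. *Pola1* (chrX:93304767-93632155) had 2015 and 2037 normalized counts in *Pich*-KO against 599 and 503 in *Pich*-WT. The groups were far apart, with a 3.68-fold difference of means (log2 fold change 1.88, standard error 0.14, 95% interval 1.57 to 2.20, adjusted p = 0.000112). *Pole* had 1285 and 1244 against 435 and 483, again without overlap and 2.76-fold higher in mean (1.46, standard error 0.14, 95% interval 1.15 to 1.78, adjusted p = 0.000336). Without *Pich*-WT sample 2, the library with no Y-linked reads, the log2 fold change of the X-linked *Pola1* was 1.76, and without *Pich*-WT sample 1 it was 2.01. *Pola1* and *Ercc6l* lie 8.51 Mb apart on that chromosome. In *Pich*-WT these were the lowest of the 44 genes per kilobase, with *Pola1* at 62.5 and *Pole* at 41.1, and in *Pich*-KO they stood at 229.9 and 113.

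**Figure D2:**
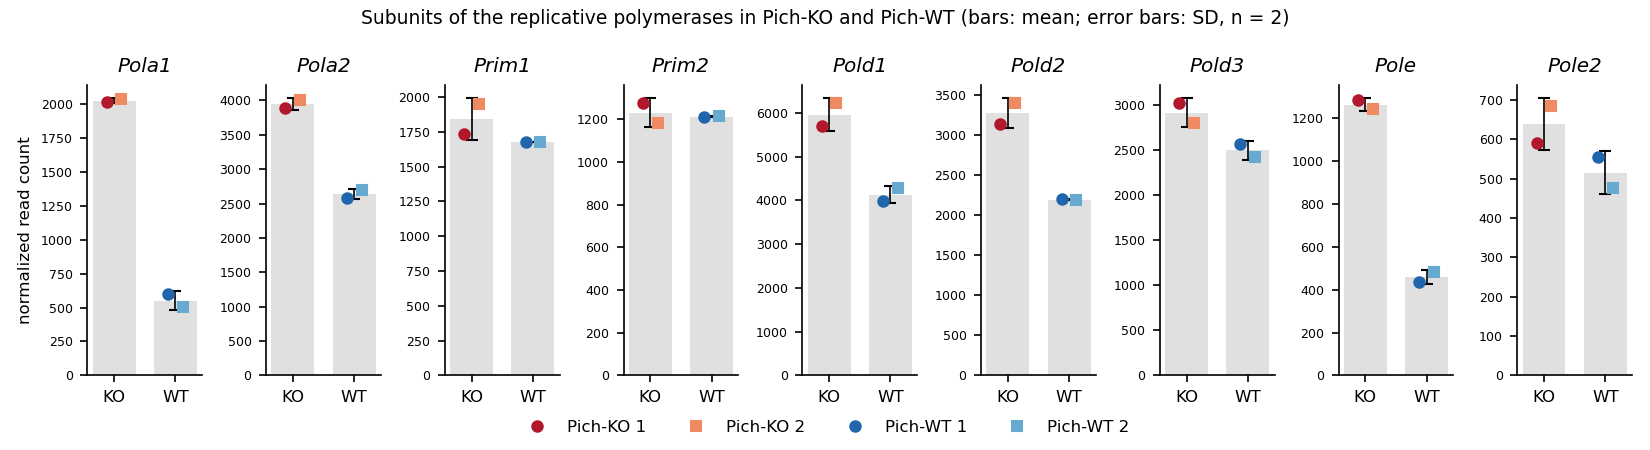
Normalized read counts of the subunits of polymerases alpha, delta and epsilon, with bars at the mean of 2 samples, error bars of 1 SD and points for each library. The *Pola1* points lie at 2015 and 2037 for *Pich*-KO and at 599 and 503 for *Pich*-WT, while the groups lie close or overlap for *Prim1* and *Prim2*.

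The partner subunits of these enzymes did not change by the same amount. *Pola2*, the regulatory subunit of polymerase alpha, had 3887 and 4005 normalized counts against 2585 and 2691 (log2 fold change 0.58, adjusted p = 0.00384). The primase subunits did not pass. *Prim1* had 1734 and 1946 against 1678 and 1679 (log2 fold change 0.13, 95% interval -0.13 to 0.39). *Prim2* had 1277 and 1182 against 1210 and 1212, and the groups overlapped (0.02, 95% interval -0.25 to 0.30). *Pole2*, the second subunit of polymerase epsilon, had 591 and 684 against 554 and 476 (0.31, adjusted p = 0.264). The ratio of *Pola1* to *Pola2* per kilobase was 0.169 and 0.166 in *Pich*-KO against 0.0756 and 0.0609 in *Pich*-WT, and that of *Pole* to *Pole2* was 0.561 and 0.469 against 0.202 and 0.262. In both ratios the groups did not overlap, with an exact permutation p of 0.333. For polymerase delta, the catalytic *Pold1* rose with 5693 and 6221 against 3989 and 4271 (0.53, adjusted p = 0.00567). *Pold2* rose to a like degree, at 3144 and 3409 against 2205 and 2192 (0.57, adjusted p = 0.00558). *Pold3*, with 3029 and 2803 against 2572 and 2426, did not pass (0.22, adjusted p = 0.198).

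**Figure D3:**
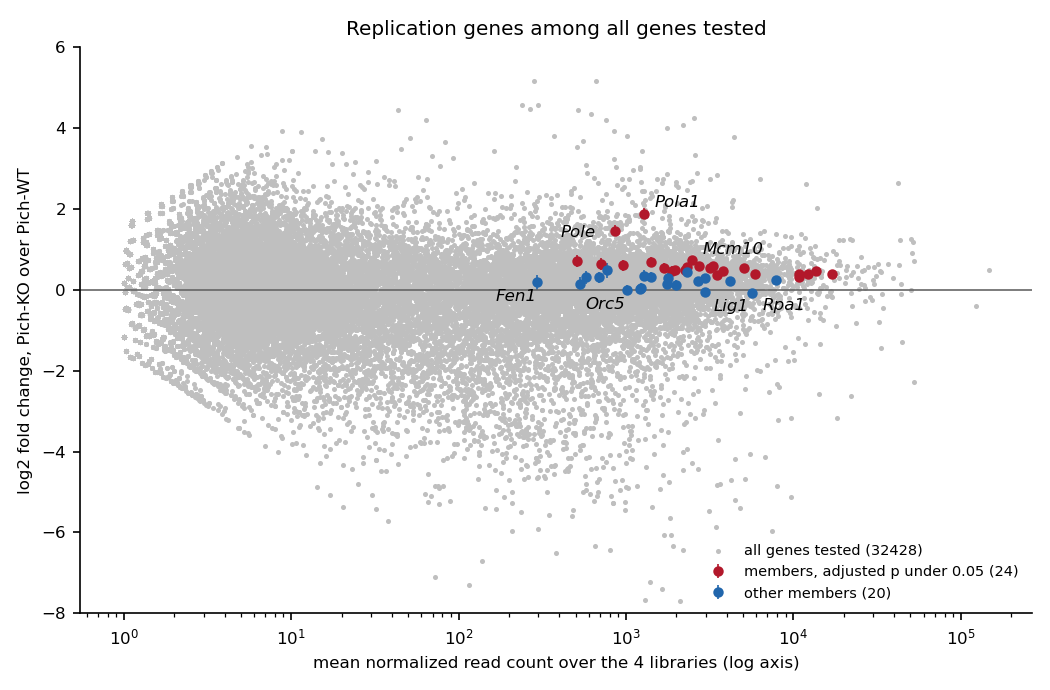
Log2 fold change of *Pich*-KO over *Pich*-WT against the mean normalized read count on a log axis, for all 32428 genes tested in grey and the 44 replication genes in colour, with standard errors. Most members lie between 0 and 0.74, *Pola1* and *Pole* lie above them at 1.88 and 1.46, and many grey genes changed more in either direction.

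PCNA is the sliding clamp, and the RFC complex opens it and places it on DNA. *Pcna* had 6108 and 7218 normalized counts in *Pich*-KO against 5253 and 4935 in *Pich*-WT (log2 fold change 0.38, standard error 0.10, adjusted p = 0.0374). Among the 5 loader subunits *Rfc5* alone passed, at 4076 and 3798 against 3060 and 3071 (0.36, adjusted p = 0.0325). The other 4, *Rfc1* to *Rfc4*, had log2 fold changes from 0.12 to 0.31 and higher values in both *Pich*-KO samples, but none passed. Their changes were smaller than those of the origin and polymerase genes that rose. A retrocopy of *Pcna* listed as *Pcna-ps2* had a mean of 42.0, small beside that of *Pcna*, though reads from near-identical copies may have been split.

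None of the genes for Okazaki fragment maturation or for RPA passed the test. *Fen1*, which trims the flaps of Okazaki fragments, had 287 and 341 normalized counts in *Pich*-KO against 292 and 259 in *Pich*-WT (log2 fold change 0.19, 95% interval -0.25 to 0.62). *Lig1*, the ligase that joins the fragments, had 2658 and 3185 against 2996 and 3101 (-0.07, 95% interval -0.33 to 0.20). The groups overlapped in both. RPA coats the single-stranded DNA that the helicase exposes. *Rpa1*, its large subunit, had 5434 and 5535 against 5921 and 5757, the only member with both *Pich*-KO samples below both *Pich*-WT samples, and did not pass (-0.09, adjusted p = 0.528). *Rpa2* and *Rpa3* had log2 fold changes of 0.30 and 0.31 without passing (adjusted p = 0.0725 and 0.221). Summed over its 3 genes, RPA was at 9349 and 9670 in *Pich*-KO against 9287 and 8923 in *Pich*-WT, so the mean differed by 1.04-fold.

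The fork protection genes rose in part. TIMELESS and TIPIN form a pair that couples the helicase to the polymerases, and CLASPIN travels with them and relays the checkpoint signal of a stalled fork. *Timeless* had 2657 and 2636 normalized counts in *Pich*-KO against 1906 and 1869 in *Pich*-WT (log2 fold change 0.49, standard error 0.10, adjusted p = 0.0119). *Tipin* had 4535 and 4278 against 3328 and 3019 (0.47, adjusted p = 0.012), so the pair rose together. *Clspn* had a like log2 fold change of 0.48 but its *Pich*-KO samples differed, at 739 and 1056 against 631 and 636, and it did not pass (adjusted p = 0.131).

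Among 30 other replication factors, 10 (33.3%) rose and 0 fell, beside 24.6% and 20.7% of the genes expressed at least as highly as the lowest member. Their median log2 fold change was 0.17. *Cinp*, which encodes a partner of CDK2 and CDC7, had 1104 and 1350 normalized counts in *Pich*-KO against 500 and 682 in *Pich*-WT (log2 fold change 1.06). *Supt16*, part of the histone chaperone FACT, had 2905 and 3031 against 1400 and 1493 (1.04). *Ticrr*, which helps bring CDC45 to the helicase, had 1037 and 1179 against 579 and 510 (1.02), and *Recql4*, a helicase that acts in initiation, had 753 and 933 against 378 and 494 (0.95). The 4 pairs of groups did not overlap.

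E2F-linked genes of the G1/S transition went both ways. Of 26, 10 (38.5%) rose and 2 (7.69%) fell, with a median log2 fold change of 0.24, beside the same 24.6% and 20.7%. *Hells*, a chromatin remodeler, rose with 2036 and 2266 normalized counts against 928 and 891 (log2 fold change 1.24). *Dut*, which keeps uracil out of DNA, rose by 0.86, *Dnmt1*, the maintenance DNA methyltransferase, by 0.67 and *Uhrf1*, its partner, by 0.64. The genes that fell encode E2F factors themselves, while *E2f7* (log2 fold change 0.15) and *E2f8* (-0.20) of the same list passed no test. *E2f1* had 673 and 283 normalized counts in *Pich*-KO against 1538 and 1374 in *Pich*-WT (log2 fold change -1.73, standard error 0.34, adjusted p = 0.0105). *E2f2* had 466 and 682 against 1569 and 1375 (-1.38, adjusted p = 0.00207). For both genes every *Pich*-KO value lay below every *Pich*-WT value.

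Mitotic genes are most expressed after replication has ended, and of 20 such genes 7 (35.0%) rose and 2 fell, with a median log2 fold change of 0.28. The shares over similarly expressed genes were again 24.6% and 20.7%. The largest changes were those of *Kif11*, a spindle motor, with 3068 and 3176 normalized counts against 1457 and 1593 (log2 fold change 1.03) and *Bub1*, a checkpoint kinase, with 2798 and 2773 against 1745 and 1637 (0.72). *Ccnb1* and *Top2a* rose by 0.51 and 0.48. *Nusap1* and *Kif23*, which act on spindle microtubules, fell by 0.43 and 0.37 on the log2 scale. Neither fall passed with a pseudocount of 0.1 or with no filter on the mean, where 0 mitotic genes were called lower.

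The summed markers of macrophages, endothelial cells, erythroid cells and hepatocytes differed between the groups by larger folds than the summed replication genes. The hepatocyte sum was 1.62-fold higher in *Pich*-WT, and the replication sum was 1.30-fold higher in *Pich*-KO. Of genes expressed at least as highly as the lowest replication gene 20.7% fell, and of all genes tested 9.6% fell. All 13 macrophage markers fell, and their summed level was 8057 to 9210 normalized counts in *Pich*-KO and 62817 to 65030 in *Pich*-WT. Their log2 fold changes ran from -7.22 to -1.33 with a median of -5.19. *Csf1r*, the most abundant, had 7268 and 6111 against 16306 and 17259, the smallest change of the list, and it makes up most of the *Pich*-KO sum. Without it the sums were 1941 and 1946 in *Pich*-KO against 46511 and 47771 in *Pich*-WT. All 5 endothelial markers fell, from sums of 17419 to 26052 in *Pich*-WT to 1349 to 2102 in *Pich*-KO, with *Lyve1* at 326 and 144 against 11442 and 7322. Of 11 erythroid markers 9 fell, from sums of 141332 to 200178 to sums of 35290 to 37727, with *Hba-a1* at 16798 and 18762 against 101298 and 74642. Of 8 hepatocyte markers 5 fell, with sums of 4258 to 4788 in *Pich*-WT against 2554 to 3037 in *Pich*-KO. *Afp*, the most abundant of them, had 1957 and 1379 in *Pich*-KO against 2509 and 2207 in *Pich*-WT. It did not pass the limma test (log2 fold change -0.52, adjusted p = 0.0795). No marker of these lists was at 0 in both *Pich*-KO samples. In bulk samples, fewer cells of a type and less RNA per cell cannot be told apart.

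**Figure D4:**
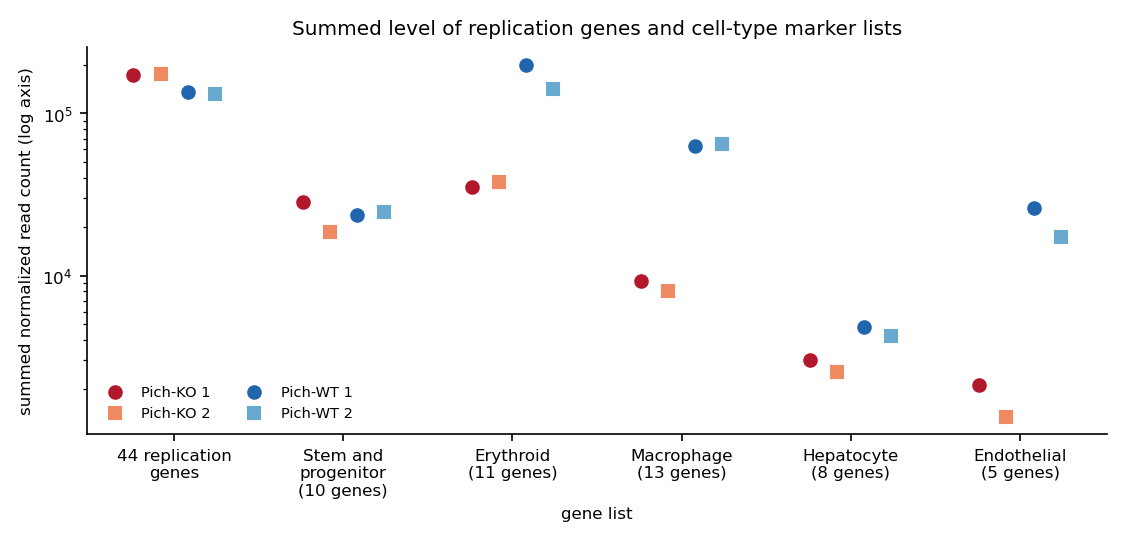
Summed normalized read counts of the 44 replication genes and of 5 marker lists in each library, on a log axis. The macrophage, erythroid, endothelial and hepatocyte sums separate the genotypes by more than the replication sum, and the stem and progenitor sums overlap.

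The genes that define the LSK gate were present in every library. *Kit* had 4447 and 2773 normalized counts in *Pich*-KO against 2328 and 2513 in *Pich*-WT, and *Ly6a*, which encodes Sca-1, had 3586 and 2978 against 901 and 1061. Of 10 stem and progenitor markers 1 (*Ly6a*) rose and 4 fell. Those that fell, named after their values were seen, were the stem cell markers *Procr* (log2 fold change -2.88), *Hlf* (-2.37), *Mecom* (-2.10) and *Slamf1* (-0.90). Of genes expressed at least as highly as the lowest replication gene, 24.6% rose and 20.7% fell. *Slamf1* and *Procr*, with means of 92.2 and 234, lay below that level. Of all genes tested, 7.58% rose and 9.6% fell. The sum of the 10 markers, most of which comes from more abundant genes, overlapped between groups, at 18457 to 28428 in *Pich*-KO and 23531 to 24809 in *Pich*-WT. *Cd34*, the most abundant of them, had 11424 and 6226 against 8901 and 8940. The part of these differences in cell types in the level of the replication genes was not tested.

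Several members lie head to head with another gene. For 12 members a protein-coding gene on the opposite strand started within 1000 bases, and 8 of these members rose, beside 54.5% of all 44. Of their 12 partners, 1 rose, 1 fell and 10 passed no test. Of all genes tested 7.58% rose and 9.6% fell. Of genes expressed at least as highly as the lowest member, 24.6% rose and 20.7% fell. *Prkdc*, which encodes the catalytic subunit of DNA-dependent protein kinase and starts 466 bases from *Mcm4*, had 240 and 290 normalized counts in *Pich*-KO against 78.2 and 73.0 in *Pich*-WT (log2 fold change 1.79, adjusted p = 0.00131), while *Mcm4* did not pass. *Abhd12*, a lipase gene 659 bases from *Gins1*, fell with 947 and 853 against 1998 and 2278 (-1.25, adjusted p = 0.000486), while *Gins1* rose. *Pxmp2*, a peroxisomal membrane protein gene 120 bases from *Pole*, was at 59.99 and 55.7 against 95.3 and 78.0 (-0.57, adjusted p = 0.235). The protein-coding partners of the origin genes, *Rars2* beside *Orc3*, *Prpf38a* beside *Orc1*, *Vps35* beside *Orc6* and *Mbd5* beside *Orc4*, had log2 fold changes of 0.14, 0.33, -0.20 and 0.70 and did not pass. *Mbd5* lay closest to the threshold (adjusted p = 0.0518), and *Orc4* itself rose by 0.61.

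In 11 members the annotated span overlapped that of a gene on the opposite strand with a mean of at least 100 normalized counts. They were *Orc2*, *Orc4*, *Orc6*, *Cdc45*, *Mcm7*, *Rfc2*, *Rfc4*, *Rfc5*, *Gins2*, *Fen1* and *Lig1*. The sources used here do not say whether strand was used in counting, so reads in the shared stretches may belong to either gene. In 3 of them the overlapping gene had the higher mean: *Tmem258* at 1213 normalized counts beside *Fen1* at 295, *Vps35* at 5293 beside *Orc6* at 1699, and *Eif4a2* at 2710 beside *Rfc4* at 1793. The length of the shared stretches was not measured. *Pola1* and *Pole* were not among them.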

How the data were processed

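The deposited table covers 2 *Pich*-KO and 2 *Pich*-WT samples of sorted fetal liver LSK cells. Each deposited value is a signal: the authors divided a gene's read count by 1 size factor per sample. By its smallest steps, whole reads were recovered for 100% of values within a tolerance of 0.01. The submitters' processing notes name Bowtie 0.12.2 and the builds mm8 and mm9, but 97.8% of 39131 genes had the start and end of GENCODE M21, so coordinates are on GRCm38. Group means, fold changes and p-values of the authors' own comparison were not used. Libraries were TruSeq RNA, and the counter is not given in the sources used here.

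The members and lists were chosen with earlier results of these data known. limma 3.58.1 (R 4.3.3) with a mean-variance trend was fitted to log2(value + 1) over genes with a mean of at least 1, two-sided, with Benjamini-Hochberg adjustment over all genes. Depth was 14703215 to 20933919 reads. The procedure was tested on simulated data. Gene lists were other replication factors, G1/S genes, mitotic genes and 5 marker lists, in which *Ahsp* was not analysed here. Named were all members, up to 4 past-threshold genes of a list in each direction, the most abundant marker of each list, the genes of the LSK gate (chosen after their values were seen), promoter partners and *Ercc6l*. *E2f7* and *E2f8* were added after their values were seen, as the other E2F factors of their list. Alternatives were a pseudocount of 0.1, no filter, at least 10 reads in every sample, no trend, a replicate block, edgeR 4.0.16 with TMM or upper-quartile scaling, DESeq2 1.42.0, scaling to the same total and leaving out each sample. Python 3.11.15, pandas 2.3.3 and scipy 1.17.1 were used.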

Additional observations from a re-analysis of the deposited data

How the results depend on the processing

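Between 21 and 30 of the 44 members were called higher, and 0 lower, with a pseudocount of 0.1, without a filter, with at least 10 reads in every sample, with the replicate block and by edgeR with either scaling, DESeq2 and scaling to the same total. In these 8 alternatives 20 members were called higher every time and 13 never. The median log2 fold change of the members stayed between 0.33 and 0.43 in all alternatives. The labels do not say whether replicate numbers pair the samples. Deviations of same-numbered samples had a correlation of 0.041 over 13924 genes. With 1 contrast per group, this cannot show whether the samples are paired. With a replicate block 26 members were called. Without the trend, 0 genes were called higher and 0 lower in all genes and in every list, although 7377 genes had an unadjusted p under 0.05. Leaving out a sample gave 0 calls for all genes and for every list, with 5757 to 8599 genes at an unadjusted p under 0.05. These fits have fewer samples, and the lone sample of a group is assumed to vary like the other group. The cause of the loss without the trend was not tested. Mitotic genes called lower came to 0 with a pseudocount of 0.1 and to 0 with no filter, where 4 mitotic genes were higher and 1 G1/S gene was lower. Log2 fold changes near 0 changed sign for *Orc5* (0.0186 with edgeR TMM, 0.0271 with upper quartile), and for *Gins4* (-0.0206) and *Prim2* (-0.0394) when scaled to the same total. When single samples were left out they ranged from -0.198 to 0.0634 for *Lig1*, from -0.0346 to 0.0769 for *Prim2*, from -0.0156 to 0.00933 for *Orc5* and from -0.00775 to 0.0876 for *Gins4*. In the 250 bases before the start alone, 9 members held the E2F letters instead of 16. With a distance of 300 bases, 8 members had a protein-coding promoter partner instead of 12. Counting error is small at this depth, and the number of samples limits the precision.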

Other observations

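Samples of the same genotype differed little in the replication genes. Within *Pich*-KO the largest difference between the samples was 0.51 on the log2 scale (*Clspn*), and within *Pich*-WT it was 0.28. *Pich*-KO sample 2 was above *Pich*-KO sample 1 in 30 of 44 genes, with a median log2 difference of 0.05. *Pich*-WT sample 2 was above *Pich*-WT sample 1 in 10 of 44, with a median log2 difference of -0.08.

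The E2F letters were in the window of 109 of 1816 genes that rose (6.00%) and of 77 of 2353 that fell (3.27%), beside 583 of 17543 (3.32%) of all genes tested and 343 of 6396 (5.36%) of those expressed at least as highly as the lowest member. These differences were not tested, the shares include the replication genes, and the sets differ in expression level. For the CCAAT box the shares were 42.2%, 40.2% and 42.0%.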
